A study of Mus musculus with 12 samples.

Results

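The Hox genes of the mouse are described here over 12 bone marrow mesenchymal stromal cell (MSC) libraries. They were taken as the rows of the gene table whose gene name is Hox, a cluster letter from a to d and a paralog number, which gave 39 of 55401 genes. By cluster these were 11 genes of HoxA on chromosome 6, 10 of HoxB on chromosome 11, 9 of HoxC on chromosome 15 and 9 of HoxD on chromosome 2. Other RNAs that lie in the clusters, such as antisense transcripts and microRNAs, were not counted as members.

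The cells were MSCs of C57BL/6 mice, a strain shared by all 4 groups, and each group held 3 libraries of poly(A) RNA. The groups were untreated MSCs and MSCs given TGF-β1 at 5 ng/mL, a cytokine that drives MSCs towards myofibroblasts. The remaining 2 groups received the same TGF-β1 dose in medium conditioned by monocytic (M-MDSC) or granulocytic (G-MDSC) myeloid-derived suppressor cells, which are immature myeloid cells that suppress T cells. The MSCs were a purchased primary culture, and whether the 3 libraries of a group came from separate cultures is not stated, so that p-values measure the spread between these libraries, which may be technical.

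Hox genes code for homeodomain transcription factors that give cells their position along the head-to-tail axis of the body and along the limb. Within a cluster, genes of low paralog number are used towards the head and genes of high paralog number, at the opposite end, towards the tail, and genes of the same number in different clusters, called paralogs, arose by duplication of an ancestral cluster. Adult stromal cells keep a Hox pattern that reflects where in the body they came from.

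The part of each gene that codes for the DNA-binding homeodomain is shown for 2 pairs of paralogs, because Hoxc10 and Hoxa10 moved together in the comparison of TGF-β1 with untreated MSCs, and Hoxb9 and Hoxc9 moved apart. Each is a stretch of 180 bases read 5′ to 3′ from the GENCODE M21 transcripts (GRCm38), lies within the last exon of its gene, and has in capitals the 18 bases for the 6 amino acids of the DNA-contacting helix that all 39 members share.
Hoxc10, chr15:102970848-102971027, plus strand: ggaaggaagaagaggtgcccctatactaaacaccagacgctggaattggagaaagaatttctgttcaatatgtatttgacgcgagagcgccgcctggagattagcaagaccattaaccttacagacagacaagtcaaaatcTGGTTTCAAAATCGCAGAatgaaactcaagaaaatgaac
Hoxa10, chr6:52232554-52232733, minus strand: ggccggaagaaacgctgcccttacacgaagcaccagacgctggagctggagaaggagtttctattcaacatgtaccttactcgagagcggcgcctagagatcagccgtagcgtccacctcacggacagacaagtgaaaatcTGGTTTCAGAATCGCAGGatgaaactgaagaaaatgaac
Hoxb9, chr11:96274659-96274838, plus strand: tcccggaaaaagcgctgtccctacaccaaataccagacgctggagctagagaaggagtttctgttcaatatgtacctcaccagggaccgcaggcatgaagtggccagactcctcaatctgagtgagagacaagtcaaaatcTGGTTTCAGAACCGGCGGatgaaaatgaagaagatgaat
Hoxc9, chr15:102983930-102984109, plus strand: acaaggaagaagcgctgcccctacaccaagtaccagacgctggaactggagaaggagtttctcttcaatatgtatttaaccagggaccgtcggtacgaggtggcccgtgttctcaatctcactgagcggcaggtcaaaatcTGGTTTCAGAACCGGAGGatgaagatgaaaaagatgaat

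The homeobox of Hoxc10 matched that of its paralog Hoxa10 at 80.6% of the 180 bases, and that of Hoxb9 matched that of its paralog Hoxc9 at 83.9%. Hoxc10 and Hoxb9, the 2 most abundant members, matched at 71.1%. Over the 42 pairs of paralogs the identity ranged from 67.2% to 93.9%, with a median of 80.6%, and over the 172 pairs within a cluster it ranged from 48.3% to 88.9%, with a median of 61.7%. Whether reads that fitted more than 1 gene were counted is not given in the sources used here, so that exchange of reads between close paralogs could not be checked.

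In untreated MSCs, 22 of the 39 Hox genes had a mean level of at least 1 FPKM (fragments counted relative to transcript length and to the fragments mapped in the library). They were 7 of 11 HoxA genes, 7 of 10 HoxB genes, 8 of 9 HoxC genes and 0 of 9 HoxD genes. The same 22 genes reached the level needed for testing, which was 1 FPKM in at least 3 of the 12 libraries. The remaining 17 were listed at 0 in every library (7 genes) or were low.

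**Figure D1:**
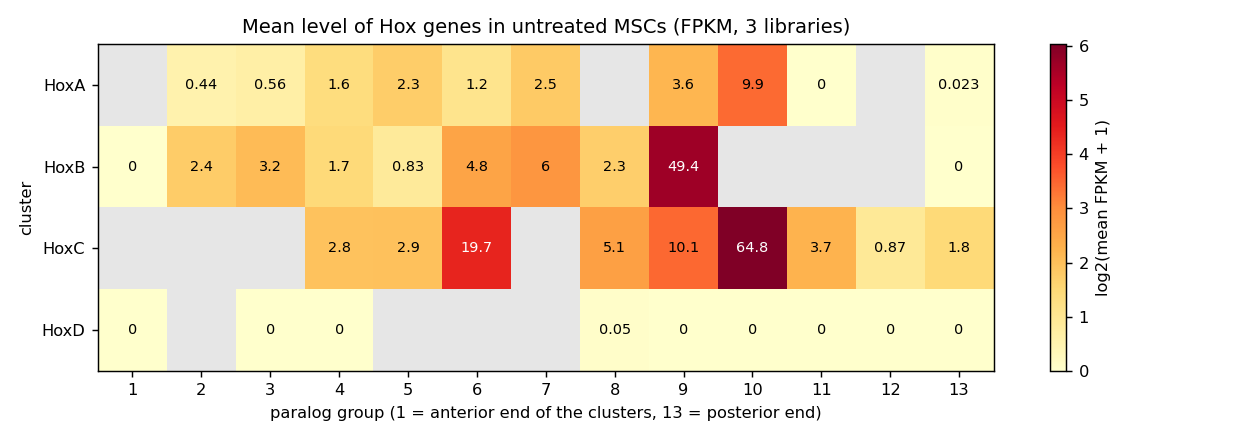
Mean FPKM of Hox genes in the 3 untreated libraries, printed in the cells and coloured on a log2(mean FPKM + 1) scale, with clusters as rows and paralog groups 1 to 13 as columns; grey cells mark positions with no gene or no value shown. The levels peak at Hoxc10 (64.8) and Hoxb9 (49.4), and the HoxD row is at or near 0.

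Hoxc10, a posterior HoxC gene used in the hindlimb and lumbar region, was the most abundant Hox gene of untreated MSCs. Its FPKM in the 3 untreated libraries was 63.9, 64.3 and 66.2. Hoxb9, which is used in the thoracic region, followed with 49.6, 48.0 and 50.7. These values did not overlap, and together the 2 genes made up 55.5% ± 0.471 (SD, n = 3) of the summed FPKM of all 39 Hox genes. Over all 12 libraries, 90.5% of the 12016 genes tested had a lower mean FPKM than Hoxc10, and 91.7% a lower one than Hoxb9.

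The next levels in untreated MSCs were those of Hoxc6 at 19.7 ± 1.44 FPKM (mean ± SD, n = 3), Hoxc9 at 10.1 ± 0.23, Hoxa10 at 9.87 ± 0.48, Hoxb7 at 6.01 ± 0.26 and Hoxc8 at 5.15 ± 0.14. The libraries of Hoxc6 lay above those of Hoxc9, while those of Hoxc9 and Hoxa10 overlapped. Hoxb6 followed at 4.80 ± 0.34 FPKM and overlapped with Hoxc8. From Hoxc11, at 3.72 ± 0.58 FPKM, downward the genes formed a near-continuous series in which neighbours overlapped, except that Hoxc4 lay above Hoxa7.

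In that series Hoxa9 had 3.56 ± 0.42 FPKM, Hoxb3 3.23 ± 0.50, Hoxc5 2.93 ± 0.92, Hoxc4 2.83 ± 0.22 and Hoxa7 2.47 ± 0.10. Hoxb2 (2.39 ± 0.13), Hoxa5 (2.31 ± 0.26) and Hoxb8 (2.27 ± 0.53) came next in FPKM. Among the lowest were Hoxc13 (1.78 ± 0.11), Hoxb4 (1.74 ± 0.13), Hoxa4 (1.57 ± 0.15) and Hoxa6 (1.15 ± 0.35). Genes of every paralog group from 2 to 11 and of group 13 were thus above 1 FPKM in at least 1 cluster, with the highest levels in groups 9 and 10.

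Of the 17 genes below that level, 4 were low but read in all 12 libraries. Hoxa2, used in the hindbrain and second branchial arch, ranged from 0.219 to 0.605 FPKM. Hoxa3 ranged from 0.368 to 0.606 FPKM, Hoxb5 from 0.498 to 0.949 and Hoxc12 from 0.276 to 1.11. Hoxa13, a gene of the distal limb and genital tract, had at most 8 counts in any library and was at 0 in 8 of 12. Hoxa11, Hoxb1, Hoxb13, Hoxd1, Hoxd11, Hoxd12 and Hoxd13 were at 0 in all 12 libraries, each of which allows up to 3 counts, or between 0.0355 and 0.0406 CPM (counts scaled to the library total), by counting error alone.

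The libraries held from 73977669 to 84565450 counts. RNA of all 11 MSC surface and stroma genes listed was read in every group. A mean of at least 1 FPKM was reached by 8 of the 11 in untreated MSCs and by 9 in each other group. Of these, mean FPKM was 254 to 385 for Itgb1 (CD29), 39.5 to 57.5 for Cd44 and 16.2 to 245 for Ly6a (Sca-1, lowest in the TGF-β1 group). Of 6 endothelial and blood progenitor markers, Cd34, which some stromal cells also carry, had 63.1 FPKM in untreated MSCs and 15.9, 12.1 and 13.9 with TGF-β1 alone, G-MDSC and M-MDSC supernatant, and it was called lower with TGF-β1 (log2 fold change -1.93) and lower again with G-MDSC supernatant (-0.43). The others, Kit and Pecam1 among them, had group means of at most 0.173 FPKM. Acta2, Ccn2 and Col1a1, which TGF-β1 is known to raise, were each called higher with TGF-β1 alone than without it, with log2 fold changes of 0.53, 2.53 and 1.11.

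With TGF-β1 alone, 10 of the 22 Hox genes tested changed (edgeR quasi-likelihood F test, Benjamini-Hochberg adjusted p under 0.05 over all 12016 genes). Hoxb2, Hoxb4 and Hoxb9 rose, all of them HoxB genes, and Hoxa9, Hoxa10, Hoxc6, Hoxc8, Hoxc9, Hoxc10 and Hoxc13 fell, all of them HoxA or HoxC genes. Hoxc8 fell by 46.2% and Hoxc10 fell by 41.9%, more than the other 5 genes that fell. Among all genes tested 34% passed the same test, 16.1% higher and 17.9% lower, and the 3 rises and 7 falls among the 22 Hox genes are to be read against these shares.

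Hoxc10 had 63.9, 64.3 and 66.2 FPKM in untreated MSCs and 35.8, 36.3 and 36.5 with TGF-β1 alone. With G-MDSC supernatant it had 39.1, 38.1 and 34.7 FPKM, and with M-MDSC supernatant 38.6, 39.2 and 38.0. All 9 libraries that received TGF-β1 were thus far below the 3 untreated ones. The log2 fold change with TGF-β1 was -0.78 (SE 0.045, adjusted p = 3.04e-07). Of the exonic bases of Hoxc10, 8.7% also belong to an annotated transcript of Hoxc5 on the same strand, and counts on those bases cannot be assigned with certainty.

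Hoxc8, a gene of the thoracic region, had 4.99, 5.23 and 5.22 FPKM in untreated MSCs and 2.78, 2.56 and 2.64 with TGF-β1 alone. It had 3.34, 3.01 and 3.44 FPKM with G-MDSC supernatant and 2.87, 3.56 and 2.92 with M-MDSC supernatant. The untreated libraries were the highest, the TGF-β1 libraries were the lowest, and the 6 supernatant libraries lay between them without overlap. The log2 fold change with TGF-β1 was -0.90 (SE 0.093, adjusted p = 2.67e-05).

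Hoxc6 and Hoxc9, neighbours of Hoxc8 in the middle of the cluster, fell by smaller amounts. Hoxc6 had 19.8, 18.3 and 21.1 FPKM in untreated MSCs, 14.6, 14.2 and 15.3 with TGF-β1, 15.8, 14.8 and 14.7 with G-MDSC supernatant and 15.6, 14.4 and 14.9 with M-MDSC supernatant. The log2 fold change of Hoxc6 with TGF-β1 was -0.37 (SE 0.061, adjusted p = 0.000752). All untreated libraries of Hoxc6 were above the other 9, which overlapped with each other. Hoxc9 had 9.81, 10.1 and 10.3 FPKM in untreated MSCs, 8.14, 7.34 and 7.71 with TGF-β1, 8.82, 9.59 and 7.39 with G-MDSC supernatant and 8.87, 9.22 and 8.67 with M-MDSC supernatant. Its log2 fold change with TGF-β1 was -0.32 (SE 0.087, adjusted p = 0.0147). The TGF-β1 libraries of Hoxc9 lay below both the untreated and the M-MDSC libraries and overlapped with the G-MDSC ones. Without the second TGF-β1 library, Hoxc9 had a log2 fold change of -0.29 and an adjusted p of 0.055 in edgeR's test, and its call was lost. Over the 15 alternatives its adjusted p ran from 0.00358 to 0.055.

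Hoxc13, the most posterior HoxC gene, which is known for its part in hair and nail formation, had 1.66, 1.86 and 1.83 FPKM in untreated MSCs and 1.16, 1.37 and 1.13 with TGF-β1. It had 0.92, 0.80 and 1.01 FPKM with G-MDSC supernatant and 0.91, 0.88 and 0.85 with M-MDSC supernatant. Its untreated libraries were the highest, the TGF-β1 libraries came next, and those of either supernatant group were lower again, without overlap. The log2 fold change with TGF-β1 was -0.49 (SE 0.132, adjusted p = 0.0146), and without the first TGF-β1 library it was -0.45 with an adjusted p of 0.0528 in edgeR's test, which lost the call (0.0028 to 0.0528 over 15 alternatives).

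The other 3 HoxC genes tested, Hoxc4, Hoxc5 and Hoxc11, had log2 fold changes of -0.14 (SE 0.106), -0.09 (SE 0.251) and -0.06 (SE 0.128), none of which passed. All 8 HoxC genes therefore had a negative estimate, with a median of -0.35, against a median of 0.0005 over all genes tested. Members of a cluster share neighbouring sequence and are not independent of each other.

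In HoxA, Hoxa9 and Hoxa10, the posterior genes of that cluster that were expressed, fell. Hoxa9 had 3.28, 3.36 and 4.05 FPKM in untreated MSCs, 2.66, 2.44 and 2.67 with TGF-β1, 3.19, 2.96 and 3.04 with G-MDSC supernatant and 2.72, 2.98 and 2.93 with M-MDSC supernatant. Hoxa9 had a log2 fold change with TGF-β1 of -0.40 (SE 0.086, adjusted p = 0.00423). The untreated libraries of Hoxa9 were above and its TGF-β1 libraries below all others. Hoxa10 had 10.3, 9.37 and 9.92 FPKM in untreated MSCs, 8.01, 7.66 and 7.53 with TGF-β1, 7.53, 7.78 and 7.12 with G-MDSC supernatant and 6.83, 7.50 and 8.26 with M-MDSC supernatant. Its log2 fold change with TGF-β1 was -0.29 (SE 0.072, adjusted p = 0.00872). The 9 libraries with TGF-β1 overlapped with each other and lay below the untreated ones. Hoxa4, Hoxa5, Hoxa6 and Hoxa7, which lie nearer the anterior end, did not pass, with log2 fold changes from -0.09 (Hoxa6, SE 0.351) to 0.11 (Hoxa7, SE 0.086).

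In HoxB, the called genes rose. Hoxb9 had 49.6, 48.0 and 50.7 FPKM in untreated MSCs and 55.2, 55.7 and 52.8 with TGF-β1 alone. Hoxb9 had 46.97, 48.7 and 48.9 FPKM with G-MDSC supernatant and 46.3, 49.0 and 47.8 with M-MDSC supernatant. The 3 TGF-β1 libraries were above all 9 others. The rise was small, 14.9% or 0.20 on the log2 scale (SE 0.038, adjusted p = 0.0020).

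Hoxb2, a gene of the hindbrain segments, had 2.36, 2.28 and 2.54 FPKM in untreated MSCs, 3.07, 3.59 and 2.90 with TGF-β1, 3.29, 3.19 and 3.16 with G-MDSC supernatant and 2.99, 3.21 and 2.64 with M-MDSC supernatant. On the log2 scale the change of Hoxb2 with TGF-β1 was 0.47 (SE 0.099, adjusted p = 0.00363). The untreated libraries of Hoxb2 were the lowest, and the other 9 overlapped. Of its exonic bases, 27.3% also lie in the antisense gene Hoxb3os, which had mean levels of at most 0.342 FPKM, and the strand setting of the counting is not stated. Hoxb4, a gene used in the hindbrain and known for its effect on blood stem cells, had 1.65, 1.68 and 1.89 FPKM in untreated MSCs, 2.39, 2.77 and 2.09 with TGF-β1, 2.34, 2.49 and 2.44 with G-MDSC supernatant and 3.19, 2.46 and 2.25 with M-MDSC supernatant. Its log2 fold change with TGF-β1 was 0.53 (SE 0.145, adjusted p = 0.0154). The untreated libraries were again the lowest, but the call of Hoxb4 was lost without the second TGF-β1 library (log2 fold change 0.42, adjusted p = 0.0642 in edgeR's test) and without the first (0.48, 0.0552) or the second (0.50, 0.0527) untreated library. Its adjusted p ran from 0.0043 to 0.0642 over 15 alternatives.

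Hoxb7, the remaining gene among the 6 most abundant, had 5.70, 6.15 and 6.17 FPKM in untreated MSCs and 6.75, 6.74 and 6.56 with TGF-β1 alone. It had 8.60, 8.97 and 7.11 FPKM with G-MDSC supernatant and 7.77, 8.00 and 8.23 with M-MDSC supernatant. The untreated libraries were the lowest, the TGF-β1 libraries came next and the 6 supernatant libraries were the highest, without overlap. Neither TGF-β1 against untreated nor either supernatant against TGF-β1 alone passed the test. The log2 fold change with TGF-β1 was 0.21 (SE 0.085, adjusted p = 0.0828). The other HoxB genes tested did not pass either, with log2 fold changes of -0.31 for Hoxb3 (SE 0.161), 0.01 for Hoxb6 (SE 0.122) and 0.58 for Hoxb8 (SE 0.375), and 52.9% of the exonic bases of Hoxb3 also lie in Hoxb3os.

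**Figure D2:**
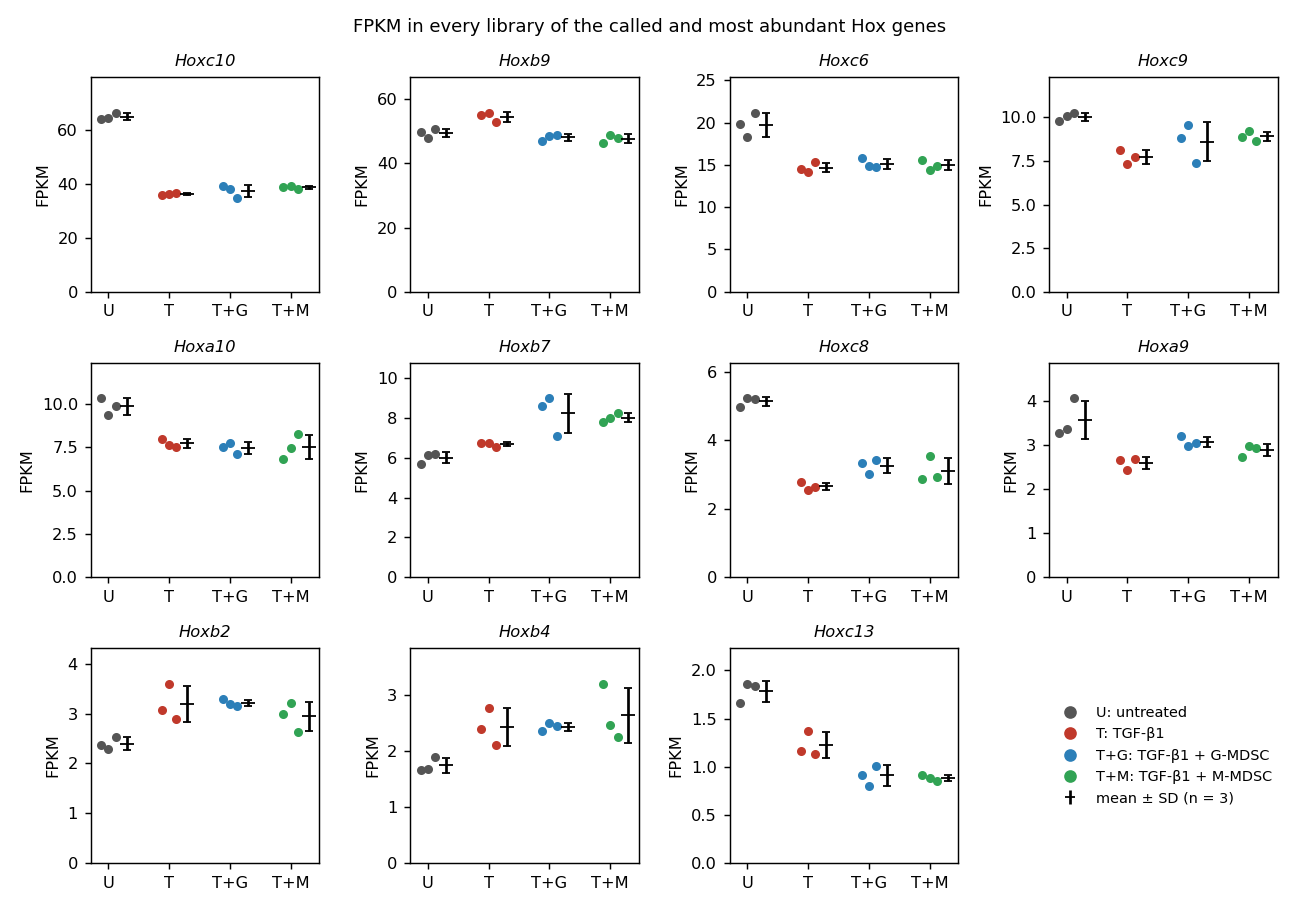
FPKM in each of the 12 libraries for the 10 Hox genes called in any comparison and Hoxb7, 1 panel per gene with its own axis from 0; coloured points are libraries and black marks are means ± SD (n = 3). The untreated libraries stand above the TGF-β1 ones for the HoxA and HoxC genes and below them for the HoxB genes.

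Counted by cluster, TGF-β1 moved 2 of 7 HoxA genes (0 higher, 2 lower), 3 of 7 HoxB genes (3 higher, 0 lower) and 5 of 8 HoxC genes (0 higher, 5 lower). The median log2 fold changes were -0.03, 0.21 and -0.35. Counted by position, 2 of 6 genes of paralog groups 1 to 4, 2 of 9 of groups 5 to 8 and 6 of 7 of groups 9 to 13 passed. The exception in the posterior set was Hoxc11, and Hoxb9 was the member of that set that rose. The counts by cluster and by position are to be read against the 34% of all genes tested that passed, 16.1% higher and 17.9% lower. Whether a gene passes also depends on its SE, which was 0.038 for the abundant Hoxb9 and 0.375 for Hoxb8. The libraries of the 2 groups did not overlap for 12 of the 22 genes, against 46.7% of all genes tested. Differences between clusters or positions were not tested, and these counts are descriptions.

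Paralogs of the same number did not move alike in every case. In group 9, Hoxa9 (-0.40) and Hoxc9 (-0.32) fell while Hoxb9 (0.20) rose, on the log2 scale. In group 10, Hoxa10 (-0.29) and Hoxc10 (-0.78) both fell. In group 4, Hoxb4 rose by 0.53 on the log2 scale, and Hoxa4 and Hoxc4 had values of -0.03 and -0.14 that did not pass. By the study's own rule, which asks for a change of more than 2 times in either direction and takes p without adjustment, 0 Hox genes were called, against 6.74% of all genes tested. At an unadjusted p under 0.05 alone there were 11, against 42.3% of all genes tested. The 95% intervals of 20 of the 22 genes stayed within 1 on the log2 scale in either direction, and over all 22 they reached from -1.08 to 1.32.

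**Figure D3:**
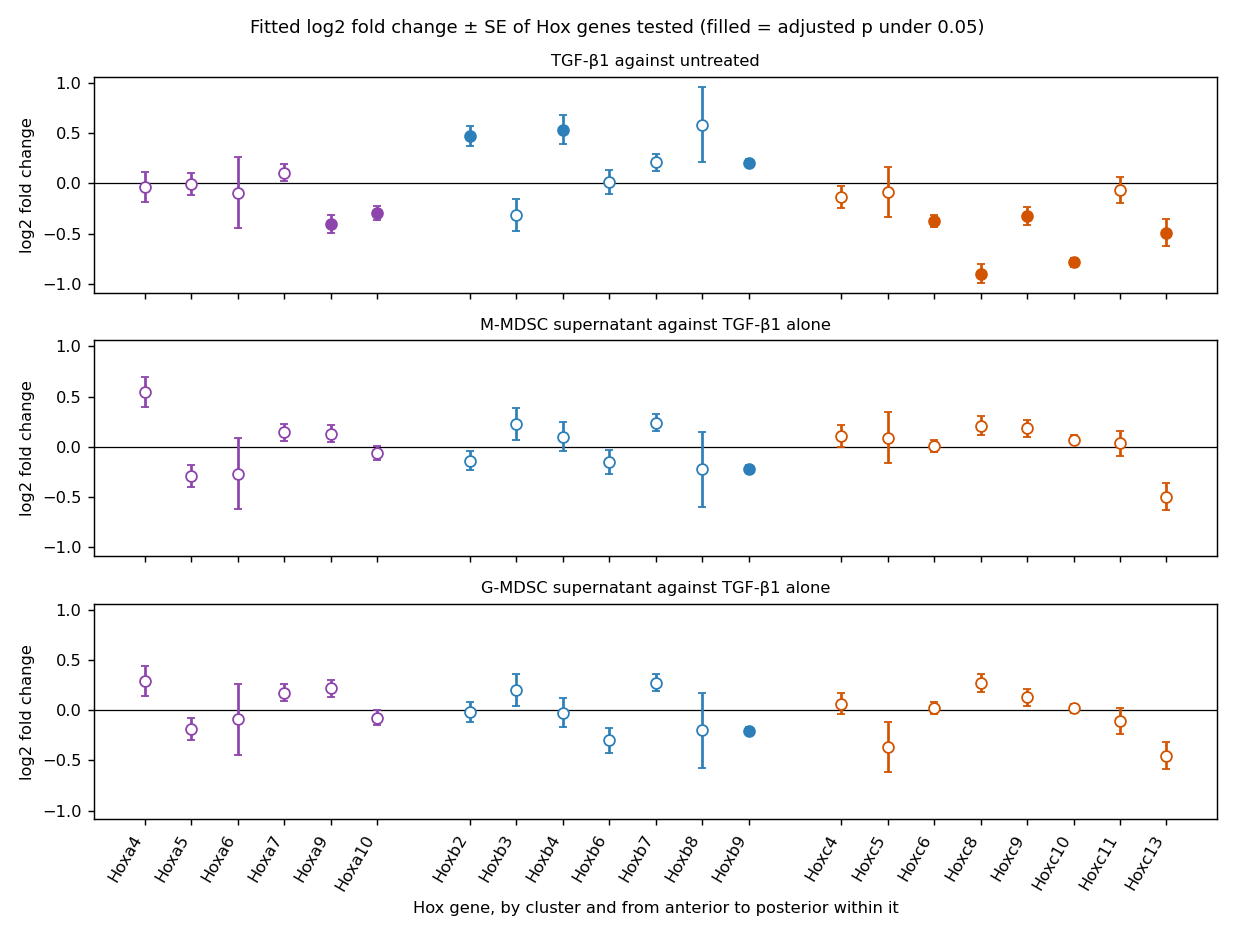
Log2 fold change ± SE of Hox genes tested, ordered by cluster and from anterior to posterior, for TGF-β1 against untreated (top) and for each supernatant against TGF-β1 alone (middle and bottom); filled points have an adjusted p under 0.05. With TGF-β1 the filled points are 3 HoxB genes above 0 and 7 HoxA and HoxC genes below it, and with either supernatant the filled point is Hoxb9.

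The makeup of the Hox RNA shifted with these changes. The summed FPKM of the 39 genes was 206 ± 5.87 in untreated MSCs, 170 ± 2.69 with TGF-β1 alone, 167 ± 5.81 with G-MDSC supernatant and 169 ± 3.94 with M-MDSC supernatant (mean ± SD, n = 3 each). HoxC genes held 54.3% ± 0.495 of it in untreated MSCs and 42.2% ± 1.01 with TGF-β1, while HoxB genes held 34.3% ± 0.539 and 46.0% ± 0.819. The HoxA share was 11.4% ± 0.299 and 11.8% ± 0.481. The ratio of Hoxc10 to Hoxb9 in FPKM was 1.31 ± 0.026 in untreated MSCs and 0.663 ± 0.023 with TGF-β1, so that the order of the 2 genes was turned around. With supernatant the ratio was 0.775 ± 0.062 (G-MDSC) and 0.81 ± 0.021 (M-MDSC), between the values of the other groups. In bulk RNA a fall in the number of cells that use a gene and a fall in RNA per cell cannot be told apart.

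**Figure D4:**
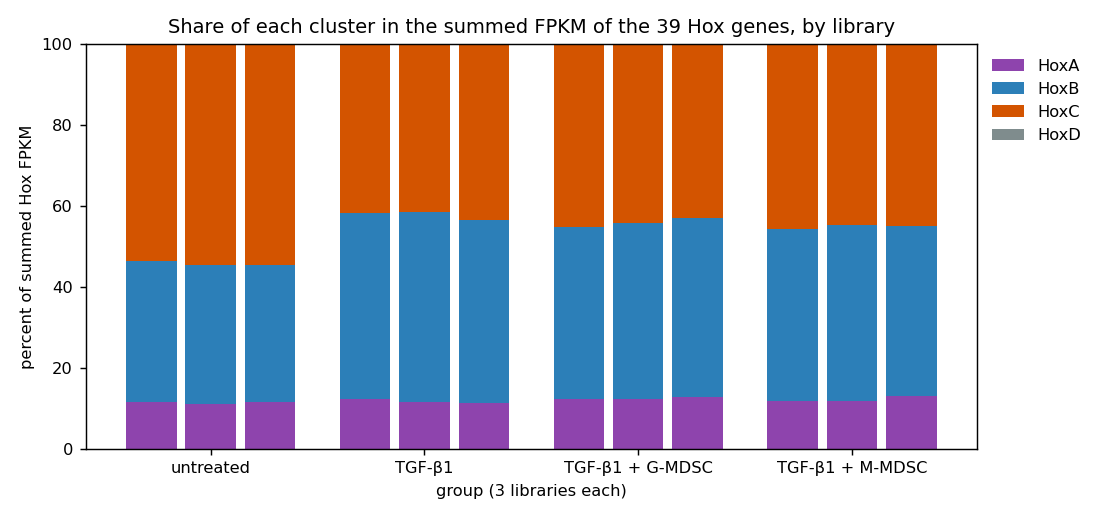
Percent of the summed FPKM of the 39 Hox genes held by each cluster, as stacked bars from 0 to 100 for each of the 12 libraries. HoxC holds 53.7% to 54.7% in the untreated libraries and 41.5% to 45.6% in the 9 with TGF-β1, and HoxD is too small to see.

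The supernatants were compared with TGF-β1 alone, to ask whether they altered the cells' response to it, and both comparisons use the same 3 TGF-β1 libraries. In each of them Hoxb9 was the single Hox gene of 22 that changed, and it was lower with supernatant. With M-MDSC supernatant Hoxb9 fell by 0.22 on the log2 scale (SE 0.038, adjusted p = 0.00774), and with G-MDSC supernatant it fell by 0.21 (SE 0.038, adjusted p = 0.00891). Its 6 supernatant libraries, from 46.3 to 49.0 FPKM, lay below the 3 TGF-β1 libraries and overlapped with the untreated ones, from 48.0 to 50.7. The comparison of TGF-β1 with untreated MSCs uses the same 3 TGF-β1 libraries, so that the rise of Hoxb9 and its falls with supernatant are not separate evidence. No group was given TGF-β1 in MDSC medium without MDSCs, so that medium and MDSC products cannot be told apart. No test of supernatant against untreated libraries was made.

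Among all genes tested, 4.78% passed with M-MDSC supernatant (1.95% lower) and 5.56% with G-MDSC supernatant (2.46% lower), and the 1 lower member of 22 in each comparison is to be read against these shares. Fitted with the compared groups alone, Hoxb9 missed the threshold in edgeR's test (adjusted p = 0.0536 with M-MDSC and 0.0559 with G-MDSC supernatant). Over 15 alternatives its adjusted p ran from 8.56e-05 to 0.0536 with M-MDSC and from 0.000193 to 0.0559 with G-MDSC supernatant.

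Several Hox genes stood near the threshold. Hoxc13 had log2 fold changes of -0.50 with M-MDSC supernatant (SE 0.133, adjusted p = 0.0678) and -0.45 with G-MDSC supernatant (SE 0.132, adjusted p = 0.0848), and all its libraries in either group were below those with TGF-β1 alone. DESeq2 called Hoxc13 lower with M-MDSC supernatant. Hoxa4 had 1.65, 1.44 and 1.34 FPKM with TGF-β1 alone, 2.03, 2.36 and 2.17 with M-MDSC supernatant and 2.06, 1.92 and 1.54 with G-MDSC supernatant. Its log2 fold change with M-MDSC supernatant was 0.54 (SE 0.147, adjusted p = 0.0714), and both limma and DESeq2 called it higher. Hoxb7 had 0.24 (SE 0.085, adjusted p = 0.178) with M-MDSC and 0.27 (SE 0.085, adjusted p = 0.106) with G-MDSC supernatant, and it was called higher with G-MDSC supernatant once the third G-MDSC library, the lowest, was left out.

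Hoxc8 and Hoxc10, which fell most with TGF-β1, did not pass the test between supernatant and TGF-β1 alone. Hoxc10 had log2 fold changes of 0.07 (SE 0.045, adjusted p = 0.478) with M-MDSC and 0.02 (SE 0.045, adjusted p = 0.911) with G-MDSC supernatant. Hoxc8 had 0.21 (SE 0.093, adjusted p = 0.292) and 0.27 (SE 0.093, adjusted p = 0.145). Hoxc6, the third most abundant member, did not pass either, with 0.01 and 0.02 (SE 0.061 for each). Over the 22 genes the log2 fold changes ranged from -0.50 to 0.54 with M-MDSC supernatant and from -0.45 to 0.29 with G-MDSC supernatant, and all 95% intervals stayed within 1 on that scale. At an unadjusted p under 0.05 there were 6 of the 22 genes in each comparison, against 16.7% of all genes tested with M-MDSC and 17.2% with G-MDSC supernatant. The groups did not overlap for 9 members with M-MDSC supernatant, against 24% of all genes tested, and for 8 with G-MDSC supernatant, against 22.7%.

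Between the supernatants, M-MDSC against G-MDSC, 0 of 22 Hox genes changed in edgeR's test, 0 had an unadjusted p under 0.05 (6.33% of all genes tested), and limma and DESeq2 also called 0. Log2 fold changes ranged from -0.18 to 0.46, and all 95% intervals stayed between -0.87 and 0.95, and differences inside those intervals were not detectable with 3 libraries a group. For Hoxb9 the value was -0.01 with a 95% interval from -0.09 to 0.06. The libraries did not overlap for 0 of 22 genes, against 12% of all genes tested, and 0.125% of all genes passed.

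The HoxD genes were nearly silent, with at most 52 counts per library. Hoxd8 had counts of 0, 23 and 16 in untreated MSCs, 25, 23 and 11 with TGF-β1, 24, 52 and 24 with G-MDSC supernatant and 23, 26 and 26 with M-MDSC supernatant. Hoxd9 was at 0 in all 6 libraries without supernatant and had counts of 18, 8 and 8 with G-MDSC and 4, 0 and 15 with M-MDSC supernatant. Hoxd3, Hoxd4 and Hoxd10 were at 0 in the same 6 libraries and each summed to 7 counts over the 6 with supernatant, and Hoxd3 and Hoxd4 share 62.3% and 52.3% of their exonic bases with other genes on the same strand, Gm28230 and each other. None of these genes reached the level for testing.

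Markers of kidney were read in the same libraries. Of 15 kidney genes listed, 15 were detected with each supernatant, 6 in untreated MSCs and 9 with TGF-β1 alone. Kap, Gpx3, Miox, Napsa, Slc34a1 and Umod had group means of at most 0.049 FPKM without supernatant and reached the level for testing only through the supernatant libraries, so that no test of them is given. Aqp1 was lower with G-MDSC supernatant (log2 fold change -0.40). Kap, a kidney androgen-regulated protein, was at 0 in all 6 libraries without supernatant and had 37.1, 51.2 and 47.3 FPKM with G-MDSC and 13.1, 9.20 and 69.2 with M-MDSC supernatant. The summed FPKM of the list, which includes Aqp1, at 29.9 FPKM in untreated MSCs, was 30.2 to 35.9 in untreated MSCs, 5.53 to 9.60 with TGF-β1, 79.9 to 91.6 with G-MDSC and 43.2 to 117 with M-MDSC supernatant. The part of these markers in the HoxD counts was not tested.

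Myeloid markers were also read with supernatant, Lyz2 with 1.56 to 2.11 FPKM with G-MDSC and 0.651 to 2.29 with M-MDSC supernatant, against 0 to 0.191 in the 6 libraries without it. S100a9 and Ngp, granule and cytosol proteins of neutrophils, were at 0 in all 6 libraries without supernatant. S100a9 had a mean of 1.13 FPKM with G-MDSC supernatant, all of it from 1 library, and 0.98, 0.258 and 0.490 FPKM in the libraries with M-MDSC supernatant, and Ngp was read in 1 library of each, at 0.288 and 0.074 FPKM. Ptprc and Itgam had group means of at most 0.008 and 0.05 FPKM, and Elane and Mpo were at 0 in all groups. Of 12 myeloid genes listed, 10 were detected with each supernatant, 6 in untreated MSCs and 7 with TGF-β1 alone. Csf1r, Ly6c2 and Ly6g were read in all groups, with and without supernatant. They were tested and were not called with either supernatant against TGF-β1 alone. S100a8 was read in untreated MSCs and with each supernatant, and was at 0 with TGF-β1 alone. Cd14, at 12.4 FPKM or more in every library, was called higher with each supernatant than with TGF-β1 alone, as were 2.83% (M-MDSC) and 3.1% (G-MDSC) of all genes tested. The summed FPKM of the list was 26.9 to 27.9 in untreated MSCs, 13.6 to 15.8 with TGF-β1, 25.8 to 29.5 with G-MDSC and 20.5 to 25.9 with M-MDSC supernatant, most of it Cd14. Their part in the Hox values was not tested.

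Hox proteins bind DNA together with cofactors of the TALE class, the Pbx, Meis and Pknox homeodomain proteins. Of 9 such genes, 8 were tested, and 4 fell with TGF-β1 while 0 rose. This count, and those of the Polycomb, Trithorax, retinoic acid, limb and flanking genes that follow, are to be read against the 17.9% of all genes tested that were lower and the 16.1% that were higher with TGF-β1. Meis2 fell most, from 4.99 to 1.94 FPKM in the group means (log2 fold change -1.30, SE 0.070, adjusted p = 1.75e-07). Pknox2 (-0.74) and Pbx2 (-0.22) were among the others that fell. The median of the 8 log2 fold changes was -0.19, and 0 of the 8 changed with either supernatant in edgeR's test, with 1 (M-MDSC) and 0 (G-MDSC) at an unadjusted p under 0.05.

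Polycomb proteins keep Hox genes silent, and Trithorax proteins and the H3K27 demethylases keep them open. Of 15 Polycomb genes, Cbx7 reached the level for testing only through the untreated libraries and is given without a test, with 1.59 FPKM in untreated MSCs and 0.754 with TGF-β1 alone in the group means. Of the other 14, 1 fell and 2 rose with TGF-β1, where 34% of all genes tested passed in either direction. Phc2 (-0.28) fell, and Cbx8 (0.50) and Jarid2 (0.34) rose, on the log2 scale, while Ezh2, the main H3K27 methyltransferase, had 0.09 (SE 0.063) and did not pass. Of 9 Trithorax and demethylase genes tested, 3 rose and 0 fell, so that the share passing in either direction was near the 34% of all genes. These were Kdm6b (0.55), Kdm6a (0.32), the 2 H3K27 demethylases of the list, and Rbbp5 (0.24), a subunit of the H3K4 methyltransferase complexes. In edgeR's test 0 genes of either list changed with supernatant, and 1 gene of each list had an unadjusted p under 0.05 with each supernatant.

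Retinoic acid and the Cdx factors set Hox expression in the embryo. Of 17 genes listed, 10 reached the level for testing, Aldh1a1 and Rarb only through the untreated libraries, so that no test of these is given. Aldh1a1, which makes retinoic acid, had 3.39 to 4.22 FPKM in untreated MSCs, and its group means were 0.084 with TGF-β1 alone, 0.301 with G-MDSC and 0.218 with M-MDSC supernatant. Rarb, a receptor, had 3.53 to 3.80 FPKM in untreated MSCs and at most 0.682 in any library with TGF-β1. Of the other 8 genes, 2 fell and 2 rose with TGF-β1. The receptors Rarg (-0.74) and Rxra (-0.49) fell, on the log2 scale. The genes that rose were Cyp26b1, which breaks retinoic acid down, and Rxrb. Cdx2 and Cdx4 were at 0 in all groups.

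Other transcription factors that mark body regions were examined beside the Hox genes. Of 16 limb and trunk factors, 7 were tested, and 4 fell and 1 rose with TGF-β1. Prrx2 (-1.44), Tbx15 (-0.60) and Prrx1 (-0.71), which act in limb and trunk mesenchyme, were among those that fell, and Tbx3 (0.62) rose. Tbx5 of the forelimb and Pitx1 of the hindlimb were at 0 in all groups, and Tbx4 of the hindlimb had at most 0.256 FPKM as a group mean. Of 13 head and branchial arch factors, 2 were tested, and Otx2, Dlx5 and Dlx6 were at 0 in all groups. Prrx1 was higher with M-MDSC supernatant than with TGF-β1 alone (0.37, adjusted p = 0.0463) and Tbx3 was higher with G-MDSC supernatant (0.33, adjusted p = 0.0201).

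Genes that flank the Hox clusters were listed as well. Of 16 flanking genes listed, 15 were in the table and 11 were tested, and 1 rose and 1 fell with TGF-β1. Snx11, beside HoxB, rose by 0.57 on the log2 scale (SE 0.067, adjusted p = 6.36e-05), and Skap2, beside HoxA, had a log2 fold change of -0.36 (SE 0.096, adjusted p = 0.0128). The flanking genes of HoxC that were tested, among them Cbx5 (-0.13, adjusted p = 0.067) and Hnrnpa1 (0.01, adjusted p = 0.933), did not pass with TGF-β1, and Calcoco1 was lower with G-MDSC supernatant than with TGF-β1 alone (-0.28, adjusted p = 0.04).

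Inside the spans of the clusters, from the first to the last Hox gene, lay 46 other annotated genes, of which 7 had a group mean of at least 1 FPKM, 4 in HoxA and 3 in HoxB. Gm53, a long noncoding RNA between Hoxb13 and Hoxb9, was the most abundant, with 7.51 ± 1.13 FPKM in untreated MSCs (TGF-β1 log2 fold change 0.04, SE 0.112, adjusted p = 0.832). Hotairm1, an antisense RNA at the anterior end of HoxA, had 1.78 ± 0.17 and 2.06 ± 0.21 FPKM (log2 fold change 0.26, SE 0.236, adjusted p = 0.449). Gm15050, an antisense RNA of HoxA, had 1.57 FPKM in untreated MSCs, and Gm11539, Gm27477 and Gm27861 were short RNAs or pseudogenes with at most 5.00 FPKM as a group mean. Hotair, the antisense RNA of HoxC, had group means of at most 0.264 FPKM. Of the 7, 0 changed in any of the 4 comparisons in edgeR's test. At an unadjusted p under 0.05 there was 1 with TGF-β1 (Gm11539) and there were 2 between the supernatants (Gm11539 and Gm27861, the latter at the level for testing only through the M-MDSC libraries), against 42.3% and 6.33% of all genes tested.

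The last of the 7 was Mir196a-1, a microRNA gene between Hoxb13 and Hoxb9, with 41 to 57 counts per untreated library and 37 to 52 with TGF-β1. Poly(A) libraries read the precursor and not the mature microRNA, so that no level of miR-196a was measured. Its mature sequence (RefSeq, GRCm38.p6, chr11:96265187-96265208, plus strand) is shown because Hox transcripts are known targets of this family, with the seed, bases 2 to 8, in capitals.
mmu-miR-196a-5p: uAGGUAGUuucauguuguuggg

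A perfect match to that 7-base seed was found in the 3′ UTR of at least 1 annotated coding transcript of 8 of the 39 members. Hoxa4, Hoxa5, Hoxa7, Hoxb6 and Hoxb7 held such sites and were not called with TGF-β1, and Hoxb1 held such a site and was not expressed. Among the genes that fell with TGF-β1, Hoxc8 and Hoxa9 held such sites. A link between the sites and the changes was not tested. The sites of Hoxc8 and Hoxa9 are shown over the 22 bases opposite the microRNA (GENCODE M21, GRCm38), with every base that pairs with it in capitals. Pairing was counted in the letters alone.
Hoxa9, chr6:52223900-52223921, minus strand: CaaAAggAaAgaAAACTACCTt
Hoxc8, chr15:102992976-102992997, plus strand: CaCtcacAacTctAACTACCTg
Hoxc8, chr15:102993733-102993754, plus strand: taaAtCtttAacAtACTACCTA

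For promoters, RefSeq starts (GRCm38.p6) were given for 22 of the 39 members, and 3 of the 10 genes called with TGF-β1 were among them. Their 300 bases, from 250 before the start to 50 after it, are shown 5′ to 3′ on the strand of the gene, because these genes moved in opposite directions, Hoxa9 and Hoxa10 down and Hoxb4 up. Capitals mark matches on either strand to 6 motifs, namely CAGAC (bound by SMAD proteins, which carry the TGF-β signal), GGCGCC (a GC-rich SMAD motif), TGANTCA (AP-1), CATTCC (TEAD), TGATTNAT (Hox with Pbx) and TATAAA (the TATA box).
Hoxa10, chr6:52234890-52235189, minus strand: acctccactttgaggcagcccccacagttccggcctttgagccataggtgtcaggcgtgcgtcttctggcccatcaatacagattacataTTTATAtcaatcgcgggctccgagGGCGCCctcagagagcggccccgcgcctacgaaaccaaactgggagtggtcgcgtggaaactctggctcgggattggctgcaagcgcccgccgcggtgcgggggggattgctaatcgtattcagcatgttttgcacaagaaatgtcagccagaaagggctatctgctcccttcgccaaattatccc
Hoxa10, chr6:52240805-52241104, minus strand: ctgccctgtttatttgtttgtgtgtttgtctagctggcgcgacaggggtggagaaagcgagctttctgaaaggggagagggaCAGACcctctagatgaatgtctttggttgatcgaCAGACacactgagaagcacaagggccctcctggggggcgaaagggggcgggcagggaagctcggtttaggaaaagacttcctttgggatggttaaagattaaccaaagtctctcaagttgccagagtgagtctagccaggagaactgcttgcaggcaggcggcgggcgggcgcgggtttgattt
Hoxa9, chr6:52227321-52227620, minus strand: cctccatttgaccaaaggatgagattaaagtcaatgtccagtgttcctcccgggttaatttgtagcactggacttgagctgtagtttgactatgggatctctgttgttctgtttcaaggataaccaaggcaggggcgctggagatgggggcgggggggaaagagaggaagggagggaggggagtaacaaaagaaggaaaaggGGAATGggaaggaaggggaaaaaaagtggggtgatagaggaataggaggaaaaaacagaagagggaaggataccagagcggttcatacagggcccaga
Hoxb4, chr11:96318017-96318316, plus strand: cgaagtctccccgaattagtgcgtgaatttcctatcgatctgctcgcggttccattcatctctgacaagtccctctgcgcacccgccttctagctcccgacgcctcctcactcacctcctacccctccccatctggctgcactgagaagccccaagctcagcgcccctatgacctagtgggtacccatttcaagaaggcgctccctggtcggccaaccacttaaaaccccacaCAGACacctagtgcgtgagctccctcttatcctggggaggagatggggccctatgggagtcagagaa

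The SMAD motif CAGAC was found 2 times in the upstream start of Hoxa10 and 1 time in Hoxb4, and not in the other 2 windows. Of 32817 promoters of the same length, 49.6% held CAGAC, so that it is common among promoters. The downstream start of Hoxa10 held 1 match each of GGCGCC (in 11.9% of all promoters) and TATAAA (13.6%), and Hoxa9 held 1 match of CATTCC (14.7%). The TATAAA match lay on the strand opposite to the gene, and its use as a TATA box was not tested. Matches of TGANTCA (7.8%) and TGATTNAT (3.2%) were not found in the 4 windows. A match describes letters only, and no binding was measured.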

How the data were processed

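RNA of 12 libraries in 4 groups of 3 was analysed, grouped by the labels. The authors prepared strand-marked poly(A) libraries, and the submitters' processing notes name cutadapt 1.9, HISAT2 2.0.4, StringTie 1.3.4d, edgeR and DESeq2. The paper's methods give fastp, alignment to GRCm38 with HISAT2, assembly with StringTie, merging with gffcompare and FPKM, with no tool given for the FPKM. The deposited table holds raw counts per gene made by the authors with a counting tool that is not given in the sources used here, and FPKM values calculated by the authors, in which a count of 0 is listed as 0.0001 and was set to 0. Of counts from 1 to 40, 36.6% were multiples of 4, so that an alternative divided the counts by 4. Totals per library ran from 73977669 to 84565450 counts, and members tested had as few as 39 counts in a library (Hoxa6), where counting error adds to the spread between libraries.

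Genes with at least 1 FPKM in at least 3 libraries (12016) were fitted with edgeR 4.0.16 in R 4.3.3 (TMM scaling, 4 groups in 1 fit, two-sided quasi-likelihood F test) and adjusted by Benjamini-Hochberg over all of them. A gene was called at an adjusted p under 0.05. SE is the size of the log2 fold change divided by the square root of F. Intervals are the log2 fold change ± 1.96 SE. They are narrower than 95% intervals matched to the F test with 3 libraries a group. An example is Hoxc9 with M-MDSC supernatant, at 0.014 to 0.354 with an unadjusted p of 0.0588 in edgeR's test. DESeq2 1.42.0, limma 3.58.1 on log2(FPKM + 1), other scalings and filters, a replicate block, the study's rule and leaving out each library were alternatives. The test was checked on simulated data. Sequences were read with Python 3.11.15 and tables with pandas 2.3.3, and 37 of the 39 members had the coordinates of GENCODE M21.

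Members called in any comparison and the 6 most abundant are given per library, other members above 1 FPKM as group means, and the rest by range. From the other lists at most 4 called genes with the lowest p are given with values, and others named, such as Ezh2 and genes at 0, were chosen after their values were seen. The members and lists were chosen with earlier results of these data known. Some genes are not reported here.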

Additional observations from a re-analysis of the deposited data

Results flagged for a closer look

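Reads of 4 HoxD genes that were too low for testing appeared in libraries with supernatant and in none of the 6 without it. Hoxd9 had 53 counts in 5 of the 6 supernatant libraries, Hoxd3 had 7 in 1 library, Hoxd4 had 7 over 3 libraries and Hoxd10 had 7 in 1 library. Hoxd8 was read in 5 of the 6 libraries without supernatant and in all 6 with it. The same 6 supernatant libraries held kidney markers such as Kap, which was at 0 in the others, and a part of those markers in the HoxD counts was not tested.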

How the results depend on the processing

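For TGF-β1 against untreated, 10 Hox genes were called under every alternative to scaling, filter, tool, groups fitted, counts divided by 4 and replicate block, 8 to 10 when a library was left out, and 0 by the study's rule of size. With M-MDSC supernatant the 1 call became 0 by the study's rule, 0 with only the groups compared, 2 with limma (Hoxa4 added) and 3 with DESeq2 (Hoxa4 and Hoxc13 added), and it stayed at 1 in every fit with a library left out. With G-MDSC supernatant the 1 call became 0 by the study's rule and 0 with only the groups compared, and 1 to 2 with a library left out (2 without the third G-MDSC library, Hoxb7 added). Between the supernatants 0 were called in every fit. The causes of these differences were not tested. Of 180 values of called genes under alternatives, 173 kept direction and call, 7 lost the call, and 0 reversed. Hoxb7, not called with TGF-β1, stayed without a call under all 15. The number of genes expressed in untreated MSCs was 22, and 25 at a mean of 0.5 FPKM, 17 at 2 FPKM, 21 when every untreated library had to reach 1 FPKM, and 22 to 22 with a library left out.

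Same-numbered libraries of different groups did not deviate together (mean correlation 0.0017 over 18 pairs, against -0.0008 over 36 pairs of different numbers), and a fit with the replicate number as a block gave 10 calls with TGF-β1, 1 with M-MDSC supernatant, 1 with G-MDSC supernatant and 0 between the supernatants. With 3 libraries a group, and low genes such as Hoxa6 and Hoxb8 varying widely between libraries, changes inside their 95% intervals were not detectable. HoxD genes were too low to test.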
